A study of Homo sapiens with 66 samples.

Results

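The regions described here are introns that contain an editing-cluster-rich region (ECR), a stretch of the genome around a dense cluster of A-to-I editing sites, widened on both sides and merged with neighbouring stretches. An intron was taken when it overlapped an ECR by at least 1000 bp and held a summed count of at least 1000 over the 48 libraries of the first study. This selected 1611 of the 197626 introns of the table, against 97124 introns with the same summed count and no ECR overlap. The first study used total RNA of a STING-deficient, Cas9-transgenic clone of the human monocytic leukemia line THP-1, nucleofected with gRNA pairs. The pairs were nontarget control gRNA alone (CTRL), hnRNPC gRNA plus control gRNA (hnRNPC-targeted), ADAR gRNA plus control gRNA (ADAR-targeted), both targeting gRNAs (ADAR+hnRNPC-targeted) or GFP gRNA, each sampled on days 3, 4 and 5. CTRL cells treated with IFN-α were sampled on day 4, which gave 16 groups of 3 libraries. A second study used a Cas9-transgenic clone that was WT for STING, with other gRNAs for hnRNPC and ADAR. It sampled total and cytosol-enriched RNA of CTRL, hnRNPC-targeted, ADAR-targeted and ADAR+hnRNPC-targeted cells, and nuclear RNA of hnRNPC-targeted cells, on day 4, as 9 groups of 2 libraries. Each study therefore rested on 1 clone, and the targeted cells were nucleofected pools.

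hnRNPC is a nuclear RNA-binding protein that packages nascent transcripts and binds uridine tracts. Alu elements are primate repeats derived from the 7SL RNA gene, and when an Alu lies antisense in a gene its poly(A) tail is transcribed as such a uridine tract, next to sequences that resemble splice sites. Neighboring Alus in opposite orientation can fold into double-stranded RNA, the substrate in which ADAR converts adenosine to inosine, read as guanosine after sequencing. Unedited double-stranded RNA in the cytosol can be sensed by MDA5, which starts the type I IFN response.

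The densest editing window of 1 of the introns is given as an example of edited sequence. The window is 200 bases of GRCh37 on the strand of the gene, 5′ to 3′, and capitals mark adenosines that were edited in at least 10% of at least 50 reads pooled over the 18 CTRL and hnRNPC-targeted libraries. ST3GAL3 is shown because its intron held the most editing sites.
ST3GAL3: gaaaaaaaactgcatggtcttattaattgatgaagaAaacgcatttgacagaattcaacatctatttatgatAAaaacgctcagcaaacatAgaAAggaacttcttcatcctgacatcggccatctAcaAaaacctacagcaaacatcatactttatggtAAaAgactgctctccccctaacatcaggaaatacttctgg
The window lies on the plus strand at chr1:44263203-44263402 and holds 11 capitals. No match to 7SL RNA was found in it in sense or in antisense orientation, so it is not an example of an Alu-like stretch. Over its sites, 14.6% of reads were edited in CTRL cells, 17% in hnRNPC-targeted cells, 5.01% in ADAR-targeted cells and 11.7% in ADAR+hnRNPC-targeted cells. The marked sites were chosen on editing in the CTRL and hnRNPC-targeted libraries, so their shares can be high by that choice. These values describe the window and are not an independent comparison of the groups.

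Among the 1611 introns, 1472 held 1 ECR and 139 held several, up to 5, and 727 held an ECR from end to end. The overlap was 1012 bp in the intron just inside the limit and 997 bp in the one just outside it, and the lowest summed count was 1052 inside and the highest 995 outside. The introns had a median length of 4497 bp, against 2026 bp for introns without ECR overlap, and a median GC content of 43.4% against 42.8%. Chromosome 1 held 262 and chromosome 19 held 171 of them, which is 16.3% and 10.6% of the introns, where all introns with the same summed count had 10.6% and 5.54% on these chromosomes. The introns contained 166117 of the 475962 deposited editing sites, with a median of 77 and a highest number of 1605 per intron. Of 154114 sites with a known gene strand, 92.0% were on that strand. Later annotation (GENCODE v44 lifted to GRCh37) placed an exon of some transcript inside 1084 of the introns, so part of their reads can come from exons, and the strand setting of the counts was not given in the sources used here.

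Matches to 7SL RNA, used here in place of an Alu annotation, were found in both orientations in 78.6% of the introns and in 27.1% of introns without ECR overlap. Antisense matches numbered 0.329 per kb and sense matches 0.269 per kb, against 0.202 and 0.161. Runs of at least 9 T on the transcript strand numbered 0.447 per kb against 0.340. The count limit and ECR definition use depth and editing, so these figures describe the regions and were given no test.

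Library depth and cell identity touched all of the values below. Gene counts were 95107700 to 152829000 per library and intron counts 20930100 to 35684700, so that introns held 17.4–27.0% as many counts as genes, and the ECR introns took 7.66–9.49% of the intron counts. Replicate 1 had the highest share of intron counts in 6 of 6 day 4 groups. One intron outside the selection took 5.36–15% of intron counts, and library sizes were therefore set from gene counts. HNRNPC RNA was 294–417 CPM (counts scaled to a common library size) in the 18 libraries that received hnRNPC gRNA and 725–869 CPM in the other 30. ADAR RNA was 404 ± 10.6 CPM (SD, n = 3) in CTRL cells and 368 ± 18.2 CPM in ADAR-targeted cells on day 4. RNA level thus hardly marked ADAR targeting, and editing serves as that check below, with a limit given there. Of 8 monocytic markers 7 exceeded 10 CPM in median, CD68 being the exception, and 5 of 6 markers of other cells were below 1 CPM.

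To ask how loss of hnRNPC affects these introns, hnRNPC-targeted cells were compared with CTRL cells. Of 1467 introns with enough counts to test (144 were not tested), 99, 112 and 107 were higher on days 3, 4 and 5, and 1, 6 and 31 were lower. Higher and lower mean a log2 fold change of at least 1 in size with a Benjamini-Hochberg adjusted p of at most 0.05 in edgeR's quasi-likelihood test across all 21798 introns tested. The called share of the ECR introns was 6.75%, 7.63% and 7.29% higher, where all tested introns had 2.49%, 3.57% and 4%. The study sought editing clusters in all samples, and a site had to meet the read minimum in at least 1 treatment. An intron can thus hold an ECR because hnRNPC targeting raised its reads. The excess over all introns, here and in the shares below, can therefore be partly built in by the selection. The lower share was 0.0682%, 0.409% and 2.11%, against 0.138%, 0.505% and 2.35% of all introns. The median log2 fold change of the ECR introns was 0.23, 0.17 and −0.02, and that of all introns 0.13, 0.08 and −0.06. Most ECR introns were thus not called on any day. In these bulk libraries a change in the number of cells and a change in RNA per cell cannot be told apart. The 72 introns that were higher on all 3 days made up 4.91% of those tested, compared with 1.84% of all introns. A single ECR intron, in HELLS, was lower on all 3 days, where all introns had 0.0872% lower. On at least 1 day 145 ECR introns were higher and 31 lower, which was not counted over all introns and so gives no comparison with them. Without hnRNPC-targeted replicate 1 on day 3, 2 introns were lower on that day, and without replicate 3, none.

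The 8 introns with the largest increase on day 4 among the 72 were in BRD8, KDM3B, ZNF367, MORC3, ZNF141, NUP153, RCN3 and TMEM116. The BRD8 intron (chr5:137507824-137513259, second of 26 intervals of the gene by position, 195 editing sites) measured 1.67, 1.01 and 0.982 CPM in CTRL cells and 18.8, 12.8 and 14.6 CPM in hnRNPC-targeted cells on day 4. BRD8 encodes a bromodomain protein of the TIP60 acetyltransferase complex. Its lowest hnRNPC-targeted library was above its highest CTRL library, with a log2 fold change of 3.67 ± 0.28 (SE, edgeR adjusted p = 6.38e-13). The KDM3B intron (chr5:137708531-137710781, in a histone H3K9 demethylase gene) measured 1.34, 0.864 and 0.922 CPM in CTRL cells and 14.7, 12.9 and 12 CPM in hnRNPC-targeted cells, again without overlap. Its log2 fold change was 3.67 ± 0.18 (edgeR adjusted p = 3.16e-18). Both introns were already higher on day 3, by 2.88 and 3.39 on the log2 scale, and were higher by 3.55 and 3.40 on day 5.

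The 6 remaining introns of this group rose as well. The ZNF367 intron (chr9:99150742-99154679, in a zinc finger gene) went from 2.99, 2.23 and 1.78 CPM to 34.9, 20 and 20.9 CPM, a log2 fold change of 3.44 ± 0.30. The MORC3 intron (chr21:37713845-37716876, in the gene of a nuclear ATPase) went from 1.33, 1.13 and 1.24 CPM to 14.9, 12.1 and 12.3 CPM, or 3.41 ± 0.16. In neither did the groups overlap. The ZNF141 intron (chr4:338220-366452) rose by 3.21 ± 0.32, the NUP153 intron (chr6:17649532-17661883, in a nuclear pore basket gene) by 2.96 ± 0.18 and the RCN3 intron (chr19:50031972-50037449, in the gene of a calcium-binding protein of the endoplasmic reticulum) by 2.94 ± 0.34. The TMEM116 intron (chr12:112429694-112441603) went from 5.58, 5.42 and 4.16 CPM to 47.9, 35.9 and 31.9 CPM, a log2 fold change of 2.93 ± 0.20. The largest edgeR adjusted p among these 6 introns was 9.62e-09, in RCN3.

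Introns of the genes that the study showed as examples covered a wider range. The study chose these genes on the same libraries, so their direction is not independent evidence. Of 12 such introns in 9 genes, 6 were higher on day 4 and none was lower. The MIGA1 intron (chr1:78245422-78267015, in a mitochondrial fusion gene) measured 6.28, 5.15 and 5.45 CPM in CTRL cells and 22.3, 22.6 and 20.1 CPM in hnRNPC-targeted cells, a log2 fold change of 1.94 ± 0.12 (edgeR adjusted p = 6.33e-16). The last intron interval of MYB (chr6:135524463-135539001, in a hematopoietic transcription factor gene) measured 39.0, 34.7 and 29.3 CPM in CTRL cells and 86.8, 72.8 and 67.3 CPM in hnRNPC-targeted cells on day 4. Its log2 fold change was 1.11 on day 3 and 1.14 ± 0.18 on day 4, both called, and 0.43 on day 5, not called. The OSTC intron (chr4:109578804-109588402, in an oligosaccharyltransferase subunit gene) rose by 1.71 ± 0.17. The introns of NUCKS1, PSPH and PNPLA3 did not pass the threshold, at 0.68, 0.93 and −0.56 on the log2 scale for that day. Without CTRL replicate 1 the PSPH intron reached 1.05 and was called.

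The introns with the most counts or the most editing sites were not among those that rose. The most abundant ECR intron, in the tRNA isopentenyltransferase gene TRIT1 (chr1:40323090-40348989), measured 285, 298 and 296 CPM in CTRL cells and 297, 305 and 289 CPM in hnRNPC-targeted cells on day 4, a log2 fold change of 0.02. The next most abundant, in the cell adhesion gene NCAM2 (0.10) and in NFYC (0.28), which encodes a subunit of the CCAAT-binding factor NF-Y, were not called either. The ST3GAL3 intron (chr1:44257821-44280562, in a sialyltransferase gene), which had the most editing sites, changed by −0.48 on day 4 and was lower on day 5, by −1.09 ± 0.20. It measured 28.2, 25 and 23.3 CPM in CTRL cells and 10.5, 12.9 and 12.5 CPM in hnRNPC-targeted cells on day 5.

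The HELLS intron (chr10:96361857-96373662, the last of 23 intervals of the gene) was the only one lower on each day. HELLS encodes a chromatin remodeler needed for DNA methylation. The intron measured 30.9, 41.0 and 27.4 CPM in CTRL cells and 15.4, 14.6 and 11.5 CPM in hnRNPC-targeted cells on day 4, with a log2 fold change of −1.26 ± 0.16 (edgeR adjusted p = 1.31e-07). The HELLS gene changed by −0.91 ± 0.11 on day 4, under the fold threshold, and by −1.36 ± 0.11 on day 5, when it was called lower. The intron-minus-gene change was −0.34 ± 0.09 on day 4 and was called on none of the 3 days. Of the 3 other tested introns of HELLS, 2 were higher, and their log2 fold changes were 0.81 to 1.80. The other introns lower on day 4 included, named after their values were seen, those in TEFM and PCCB and 1 interval shared by 2 tested genes (chr2:179296982-179300871).

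The 72 introns that were higher on all 3 days were longer than the other 1395 tested ECR introns, with medians of 8310 and 4684 bp. They had 0.661 T runs and 0.490 antisense 7SL matches per kb, against 0.430 and 0.315, while sense matches were 0.238 and 0.266 per kb. These densities are a description and were given no test. The share of introns higher on day 4 grew with length among ECR introns, from 2.38% of those under 2 kb to 6.44% at 2 to 5 kb, 7.48% at 5 to 10 kb and 14.4% (43 of 299) above 10 kb. Introns without enough ECR overlap had 1.98%, 4.08%, 3.67% and 3.5% in the same length classes. Among the latter, introns with an antisense 7SL match had 8.81%, 6.83%, 4.66% and 3.66%, and those without one had 0.981%, 1.65%, 0.896% and 0.867%. ECR introns with such a match had 2.3%, 6.82%, 7.31% and 14.6%. Those without one, only 39, 75, 19 and 5 introns, had 2.56%, 4%, 10.5% and 0%. Regardless of matches, the ECR introns and the others lay closest below 2 kb and farthest apart above 10 kb. Among introns with an antisense match, the ECR introns were below the others under 2 kb, level at 2 to 5 kb and above them only in the longer classes.

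Next, each intron was set beside its gene, to ask whether the intron moved with the whole transcript. Of the ECR introns, 1445 lay in exactly 1 tested gene, 80 in more and 86 in none, and they belonged to 1139 tested genes. Of these host genes 4, 5 and 12 were higher and 8, 19 and 31 lower in hnRNPC-targeted cells on days 3, 4 and 5. All 13187 tested genes had 0.554%, 1.58% and 3.96% higher and 0.485%, 1.63% and 3.75% lower. Of the 106 higher introns on day 4 with 1 host gene, the gene was called higher for 3, lower for none and not called for 103. The median log2 fold change was 1.40 for these introns and 0.07 for their genes, and 47 of the genes were below 0. The BRD8 gene changed by 0.54 ± 0.07, the KDM3B gene by −0.43 ± 0.06 and the MIGA1 gene by 0.21 ± 0.07 (edgeR), none of which reached the threshold in size. The ZNF141 and RCN3 genes were themselves called higher, by 1.46 ± 0.19 and 1.49 ± 0.20.

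The difference of log2 intron CPM and log2 gene CPM within a library was tested with limma over 20330 introns that lie in 1 tested gene, 1323 of them with an ECR. This difference was higher in hnRNPC-targeted cells for 114, 129 and 133 ECR introns and lower for 1, 3 and 14 on days 3, 4 and 5. All introns had 3.5%, 4.7% and 5.15% higher and 0.0443%, 0.182% and 0.443% lower, where the ECR introns had 8.62%, 9.75% and 10.1% higher. The selection of ECR introns with the hnRNPC-targeted libraries included can add to these shares as well. It rose by 4.09 ± 0.18 for KDM3B, 3.31 ± 0.21 for NUP153 and 3.13 ± 0.23 for BRD8 on day 4, and by 1.12 ± 0.19 for MYB, whose gene changed by 0.02. For the NUCKS1 intron, in the gene of a chromatin-associated phosphoprotein, it rose by 2.03 ± 0.29. There the gene fell by 1.35 on the log2 scale and the intron, at 87.0, 59.9 and 55.0 CPM against 49.3, 42.2 and 34.2 CPM, was not called itself. Of the lower counts, that of day 3 was 2 without hnRNPC-targeted replicate 1 and none without their replicate 3 or replicate 1 or 2 of the CTRL cells, that of day 4 was 7 without hnRNPC-targeted replicate 1, and that of day 5 was 9 without replicate 1 of that group.

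The other introns of the same genes gave a comparison within the transcript. In 82 genes with a higher ECR intron on day 4 and other tested introns, 17 of 313 other introns were higher (5.43%), and their median log2 fold change was 0.16. The ECR intron was above the median of the others in 82 of 82 genes, although it was picked for being high. The 3 other tested introns of BRD8 changed by −0.08 to 0.67, the 12 of MYB by −0.07 to 0.34 and the 1 of MIGA1 by −0.36, none of them called. In KDM3B 1 of 3 and in TMEM116 1 of 3 other introns was also higher, by 2.11 and 1.74, and in MORC3 the other tested intron, which contains an ECR as well, rose by 2.04.

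To ask whether the response needed intact ADAR, ADAR+hnRNPC-targeted cells were compared with ADAR-targeted cells, which share no library with the comparison above. Of the ECR introns, 51, 118 and 106 were higher and 2, 10 and 97 lower on days 3, 4 and 5. All introns had 1.6%, 4.74% and 5.51% higher and 0.165%, 0.505% and 5.96% lower. On day 3, 51 introns were higher in both comparisons, which is 51.5% of those higher with hnRNPC gRNA alone and 100% of those higher on the ADAR background. On day 4 there were 97, or 86.6% and 82.2%, and on day 5 there were 72, or 67.3% and 67.9%. The same overlap was not counted over all introns, so these shares do not show a trait particular to the ECR introns. The BRD8 intron rose by 3.30 ± 0.28 and the KDM3B intron by 3.58 ± 0.18 on day 4 (edgeR adjusted p = 8.54e-12 and 7.16e-18), and the BRD8 intron measured 1.69, 0.997 and 1.02 CPM in ADAR-targeted and 15.1, 10.3 and 11.2 CPM in ADAR+hnRNPC-targeted cells. The MIGA1 and MYB introns rose by 1.69 ± 0.12 and 1.17 ± 0.18. Without ADAR-targeted replicate 1 the count of higher introns on day 4 was 202. With library sizes from intron counts 59 introns were lower on day 5, and 70.1% of the called introns were then higher, against 52.2% with gene counts.

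The host genes of the ECR introns were higher in 3, 14 and 41 cases and lower in 7, 13 and 39 cases in the same comparison, where all genes had 0.576%, 2.71% and 7.45% higher and 0.326%, 1.33% and 4.85% lower. The intron relative to its gene was higher for 70, 141 and 97 ECR introns and lower for 2, 4 and 54, compared with 2.26%, 5.77% and 4.33% higher and 0.108%, 0.231% and 2.61% lower of all introns. In 86 genes with a higher ECR intron on day 4, 37 of 331 other introns were higher. The ECR intron exceeded their median in 82, although it was picked for being high in this comparison. The small counts of lower introns relative to their genes moved with single libraries. On day 3 they were 1 without ADAR+hnRNPC-targeted replicate 3 or ADAR-targeted replicate 2. On day 4 they were 2 without replicate 3 of the former or replicate 1 of the latter, and 7 without replicate 2 of the latter. The 2 lower introns on day 3 were 1 without ADAR+hnRNPC-targeted replicate 3.

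Against CTRL cells, which also enter the hnRNPC comparison, ADAR+hnRNPC-targeted cells had 60, 101 and 95 higher and 2, 12 and 133 lower ECR introns. All introns had 1.68%, 3.57% and 5.49% higher and 0.161%, 0.711% and 8.03% lower. On day 5 lower introns thus outnumbered higher ones among the ECR introns. With library sizes from intron counts 85 were lower and 59.5% of called introns higher, against 41.7% with gene counts. This change of scaling moved the median of all introns on day 5 from −0.28 to −0.11 against CTRL cells and from −0.20 to −0.05 against ADAR-targeted cells, that of the interaction below from −0.14 to 0.04, and that of ADAR-targeted against CTRL cells on day 4 from −0.13 to −0.02. Without ADAR+hnRNPC-targeted replicate 1 the lower count was 20 on day 4, and without replicate 3 it was 1 on day 3.

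ADAR targeting alone was compared with CTRL cells in the same way. No ECR intron was called on any day by edgeR or by limma-voom, while 18, 104 and 100 had an unadjusted p under 0.05 on days 3, 4 and 5. No other intron was called either, so that 0%, 0% and 0% of all introns were higher on the 3 days. Of the host genes none was higher on days 3 and 4 and 1 on day 5, against 0%, 0.0682% and 0.273% of all genes. GFP gRNA, a targeting control, called no ECR intron on any day by edgeR, with 27, 32 and 89 at an unadjusted p under 0.05. All introns had 0%, 0% and 0.00459% higher with GFP gRNA. The BRD8 intron measured 1.67, 0.722 and 0.957 CPM with GFP gRNA on day 4, the lowest of them below all CTRL and ADAR-targeted libraries of that day.

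IFN-α treatment asked which of these introns follow the IFN response itself. Of the ECR introns 9 were higher and none lower, with 174 at an unadjusted p under 0.05 in either direction, and all introns had 0.821% higher and 0.0229% lower. The count of lower introns was 2 when IFN-α–treated replicate 1 was left out and 1 when CTRL replicate 1 was. Of the host genes 10 were higher and 1 lower, against 1.21% and 0.114% of all genes. The 4 introns with the largest increase were 3 of MX1, an IFN-induced dynamin-like GTPase, and 1 of SP110, a nuclear body protein. MX1 42818069, named by its start on chromosome 21 (end 42821063), measured 0.147, 0.25 and 0.0935 CPM in CTRL cells and 33.4, 30.3 and 31.5 CPM in IFN-α–treated cells. It rose by 7.58 ± 0.43, MX1 42824797 by 7.13 ± 0.41 and MX1 42799794 by 6.98 ± 0.48 on the log2 scale, while the MX1 gene rose by 8.11 ± 0.23. The SP110 intron (chr2:231032009-231033633) went from 0.828, 0.796 and 0.982 CPM to 12.7, 14.2 and 14.1 CPM, a log2 fold change of 3.97 ± 0.26 (edgeR adjusted p = 8.92e-15), and its gene rose by 3.32 ± 0.12.

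The remaining higher introns, named after their values were seen, were those of PARP9 (3.82), MVB12A (2.40), RNF213 (2.32), STAT2 (1.62) and PML (1.41). The host gene was called higher for 8 of the 9 introns. The exception was MVB12A, whose gene changed by −0.28 and whose intron was higher relative to its gene by 2.68 (limma adjusted p = 1.28e-16). This was the 1 ECR intron higher relative to its gene under IFN-α, and 1 was lower, at 0.0541% higher and 0.0541% lower of all introns. Without CTRL replicate 2, or replicate 1 or 2 of the IFN-α–treated cells, 2 were higher, and without replicate 1 of the latter 2 were lower. In 6 genes with a higher ECR intron, 15 of 15 other tested introns were higher as well. None of the 8 introns with the largest hnRNPC increase was called under IFN-α, and BRD8 changed by −0.37 ± 0.28 and KDM3B by −0.13 ± 0.18.

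Whether the response to hnRNPC targeting differed with ADAR status was tested as an interaction across all introns. It was called for no ECR intron on day 3, where 40 had an unadjusted p under 0.05, for 1 higher and 0 lower on day 4 and for 24 higher and 14 lower on day 5, or 1.64% and 0.954% of those tested. All introns had 0%, 0.106% and 2.26% called higher and 0%, 0% and 2.59% called lower on the 3 days. The 1 on day 4 was none without replicate 3 of the ADAR+hnRNPC-targeted, 2 or 3 of the ADAR-targeted, 1 or 2 of the CTRL or 2 of the hnRNPC-targeted cells, and 2 without replicate 1 of the ADAR-targeted or hnRNPC-targeted cells. With library sizes from intron counts 4 were lower on day 5, and 89.7% of called introns were higher, against 63.2% with gene counts. The lower count was also 4 without hnRNPC-targeted replicate 1 and 7 without CTRL replicate 2. The largest interactions on day 5 were those of MX1 42799794 (6.26 ± 0.65), MX1 42818069 (6.11 ± 0.57) and MX1 42824797 (4.94 ± 0.56), with SP110 at 3.69 ± 0.35. MX1 42818069 measured 0.886, 0.406 and 0.485 CPM in ADAR-targeted and 38.1, 46.3 and 71.4 CPM in ADAR+hnRNPC-targeted cells on day 5, and 0.189, 0.287 and 0.294 CPM in hnRNPC-targeted cells. The MX1 gene rose by 6.64 ± 0.21 in the same comparison. The BRD8 and KDM3B introns had interactions of −0.35 ± 0.37 and 0.13 ± 0.24 on day 5, neither called.

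Host genes were also set beside lists chosen with earlier results of these data known. The list of IFN-stimulated genes held 7 ECR introns in 5 of its 46 genes, 3 in MX1 and 1 each in SP110, PARP9, STAT2 and PML. All 7 were higher under IFN-α (median 3.97, all introns −0.03) and in ADAR+hnRNPC-targeted against ADAR-targeted cells on day 5 (median 4.35, all introns −0.20), 5 were higher on day 4 of that comparison and 1 in hnRNPC-targeted cells on day 4. That 1 was MX1 42818069 at 1.21 ± 0.43 with an edgeR adjusted p of 0.0461, which was 0.289 in limma-voom and 0.106 to 0.239 without replicate 1 or 3 of the CTRL or of the hnRNPC-targeted cells. The list of 20 splicing and RNA-binding genes held 5 ECR introns, in DHX9, HNRNPC, PTBP1, HNRNPL and MATR3, and none was called in hnRNPC-targeted cells on day 4, where their median was −0.04. The 14 genes of nucleic acid sensing held no tested ECR intron.

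Editing was measured for 1515 ECR introns as the share of edited reads over all deposited sites of an intron, with at least 50 reads in each library. The test was limma on the log2 odds over 3981 introns, called at an adjusted p of at most 0.05. Pooled over the ECR introns, 4.22% ± 0.21 (SD, n = 3) of reads were edited in CTRL cells on day 4, with libraries at 3.98%, 4.31% and 4.38%. ADAR-targeted cells were at 1.82% ± 0.13, with every library below every CTRL library, and 1171, 1198 and 1216 introns were lower on days 3, 4 and 5. All tested introns had 51.7%, 53.2% and 55.1% lower. A single ECR intron, in HELZ2, was higher on day 4, where all tested introns had 0.0754% higher, and 2 were higher without CTRL replicate 3. On day 3 the count of higher introns, none with all libraries, was 1 without replicate 1 of either group and 2 without CTRL replicate 3, and on day 5 it was 1 without replicate 1 of the ADAR-targeted or 3 of the CTRL cells. The study required a site to pass limits on reads and editing in at least 1 sample with intact ADAR. Part of the lower editing with ADAR gRNA, here and below, can therefore be built in by the choice of sites. IFN-α–treated cells reached 6.62% ± 0.89, with libraries at 5.66%, 6.78% and 7.42%, and ADAR RNA was 1236 ± 165 CPM there against 404 CPM in CTRL cells. In these cells 250 of the 1515 ECR introns had higher editing and 1 lower, where all tested introns had 8.21% higher and 0.0502% lower. With IFN-α–treated replicate 3 left out, 144 were higher and none was lower, and none was lower without any 1 of the 3 CTRL libraries.

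In hnRNPC-targeted cells the pooled share was 4.66% ± 0.35, 5.04% ± 0.42 and 5.09% ± 0.30 on days 3, 4 and 5. The CTRL means were 4.17%, 4.22% and 4.14%, and the libraries of both groups overlapped on day 3 but not on days 4 and 5, while ADAR RNA was 411 ± 31.6 CPM on day 4. Single introns rarely passed the test, with 2, 11 and 31 higher (all introns 0.0502%, 0.402% and 1.73%) and 2 lower on day 5 (all introns 0.126%), in PRKRA and TRPM7. Leaving out any 1 library of day 4 left 2 to 5 introns higher, and any 1 of day 5 left 11 to 17. On day 3 none was higher without CTRL replicate 1 or without replicate 2 or 3 of the hnRNPC-targeted cells, and 1 without replicate 3 of the former or replicate 1 of the latter. On the last day 1 was lower without any 1 library other than hnRNPC-targeted replicate 3. The intron of GPBP1L1, a promoter-binding factor gene, was the one higher on each day, from 4.70% ± 0.72 to 9.31% ± 0.41 on day 4 (limma adjusted p = 0.000191). It was named after its values were seen, as were the introns of WDR5, a subunit of histone methyltransferase complexes, from 2.62% to 7.38%, and of the mitotic genes MELK, from 3.33% to 8.85%, and SPC24, from 2.93% to 6.51%.

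Combined targeting gave 2.27% ± 0.17, 2.25% ± 0.11 and 3.01% ± 0.063 edited reads on days 3, 4 and 5. Compared with hnRNPC-targeted cells, 1032, 1198 and 566 ECR introns were lower (all introns 44.4%, 54.1% and 22.7%). The smaller count on day 5 went with an ADAR RNA level of 1322 ± 174 CPM in the ADAR+hnRNPC-targeted cells, whose part in the result was not tested. That count was 307 without hnRNPC-targeted replicate 1 and 371 without ADAR+hnRNPC-targeted replicate 1.

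Named introns showed how editing and abundance relate in single genes. The MYB intron had 3.63% ± 0.32 edited reads in CTRL cells, 1.08% ± 0.17 with ADAR gRNA, 4.53% ± 0.28 with hnRNPC gRNA and 7.72% ± 1.2 after IFN-α on day 4, and was called in the ADAR and IFN-α comparisons. The TRIT1 intron, not called for abundance, had 4.57% ± 0.33, 1.63% ± 0.12, 4.76% ± 0.56 and 11.8% ± 1.5 in the same groups. The BRD8 intron had 3.20% ± 1.7 in CTRL cells over 215 to 620 reads and 11.4% ± 0.98 in hnRNPC-targeted cells over 4380 to 6827 reads, but did not pass the test (limma adjusted p = 0.13). The KDM3B intron went the other way, from 9.42% ± 2.1 to 6.15% ± 1.2, and was not called either (limma adjusted p = 0.60). The MIGA1 intron had 5.14% ± 1.3 in CTRL, 7.67% ± 0.72 in hnRNPC-targeted and 14.6% ± 2.0 in IFN-α–treated cells. The ST3GAL3 intron at 44257821 was the 1 intron with lower editing under IFN-α, 1.25% ± 0.58 against 2.77% ± 0.46. Over the 57 introns that were higher on all 3 days and had an editing value, median editing on day 4 was 4.73% in the CTRL and 6.57% in the hnRNPC-targeted groups, and over 1345 other introns 3.97% and 4.78%. Sites were sought with the hnRNPC-targeted libraries included and under a read minimum, and these libraries held more reads of the 57 introns. The larger rise in the 57 introns can therefore be partly built in by the choice of sites, and it was given no test.

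The second study, with another clone, other gRNAs and its own libraries, was used to ask whether the same regions moved again and how cytosolic RNA compared with total and nuclear RNA. Introns were not counted there, so the 1569 tested ECRs that overlap the introns stand in for them, and an ECR can reach beyond its intron. In hnRNPC-targeted cells 22 were higher and 15 lower in total RNA, and 29 higher and 5 lower in cytosolic RNA. All 2470 tested ECRs had 1.54% and 0.729% in total and 1.9% and 0.243% in cytosolic RNA. ADAR+hnRNPC-targeted against ADAR-targeted cells had 107 higher and 4 lower in total RNA, and 31 and 3 in cytosolic RNA, where all ECRs had 6.6% and 0.283%, and 1.62% and 0.162%. With 2 libraries a group, these counts moved with single libraries. The 22 and the 4 were exceptions, and the 15 became 47 without CTRL replicate 1 and 5 without replicate 2 of either group. In cytosolic RNA the 29 became 15 and 47 without replicate 1 or 2 of the CTRL cells, and the 5 became 2 without CTRL replicate 1 and 3 without hnRNPC-targeted replicate 1. The 107 became 62 and 70 without replicate 2 of the ADAR-targeted or the ADAR+hnRNPC-targeted cells. The 31 became 17 without either ADAR-targeted library and 20 without ADAR+hnRNPC-targeted replicate 1, and the 3 became none without replicate 1 of the ADAR+hnRNPC-targeted or 2 of the ADAR-targeted cells, 6 without replicate 2 of the former and 7 without replicate 1 of the latter.

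The introns that rose in the first study were followed on their own. Of 69 ECRs from 63 of the 72 introns higher on all 3 days, 17 and 15 were higher with hnRNPC gRNA in total and cytosolic RNA, and 26 and 16 on the ADAR background. None was lower in any of the 4 comparisons, and the medians were 0.39, 0.36, 0.70 and 0.37. Of 1329 ECRs from introns higher on no day, 2, 7, 67 and 6 were higher, with medians of −0.04, −0.05, 0.01 and −0.12. The BRD8 ECR measured 1.38 and 2.72 CPM in CTRL and 12.9 and 8.75 CPM in hnRNPC-targeted total RNA. It was higher by 2.41 ± 0.31 in total and 2.26 ± 0.32 in cytosolic RNA (edgeR adjusted p = 1.27e-04 and 2.17e-04). The TMEM116 ECR rose by 1.48 ± 0.26 and 1.77 ± 0.26. The RCN3 ECR rose by 1.71 ± 0.42 in total RNA and was not called in cytosolic RNA (1.33 ± 0.44). The ECRs of KDM3B (0.60), ZNF367 (0.89), MORC3 (0.58), NUP153 (0.30) and MYB (0.22) were not called in total RNA, although their introns were in the first study. The HELLS ECR was lower in total RNA, by −1.09 ± 0.19.

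Few host genes were called in these comparisons. Of 1130 tested, 1 was higher and 1 lower in total RNA and 0 and 1 in cytosolic RNA of hnRNPC-targeted cells, against 0.279% and 0.455%, and 0.249% and 0.227%, of all genes. On the ADAR background 9 were higher and 2 lower in total RNA and none in cytosolic RNA, where 216 had an unadjusted p under 0.05, against 1.68% and 0.345%, and 0.169% and 0.0147%, of all genes. With CTRL replicate 1 left out, 3 host genes were higher and 18 lower in total RNA, and none was lower without replicate 2 of either group. In cytosolic RNA 3 were higher and 3 lower without CTRL replicate 2, 4 were lower without hnRNPC-targeted replicate 2, and none was lower without replicate 1 of either group. Without ADAR-targeted replicate 2 the 9 became 3 and the 2 became 1.

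Cytosolic RNA was then compared with total RNA over the 4 gRNA groups. Each library was scaled on its own gene counts, so these changes are relative. The reference RNAs of nucleus, mitochondria and cytosol that the paper used were not examined here. The values thus do not show by themselves whether an ECR reached the cytosol. Of the ECRs 3 were higher and 232 lower in cytosolic RNA (all ECRs 0.445% and 13.1%), and 1334 were not called. The 3 became 9 without replicate 2 of the total RNA of CTRL cells and 5 to 7 without replicate 2 of the total RNA of ADAR-targeted cells, replicate 1 of their cytosolic RNA, or replicate 2 of the cytosolic RNA of CTRL or hnRNPC-targeted cells. In hnRNPC-targeted cells, 84 were higher and 381 lower in cytosolic than in nuclear RNA (all ECRs 7.29% and 21.6%). The ECR lay below its gene in the cytosolic-to-total change for 959 of 1413 ECRs (67.9%), and for 50 of 64 ECRs of the introns higher on all 3 days. The MIGA1 ECR differed from most, at 15 and 12.7 CPM in cytosolic and 5.89 and 6.37 CPM in nuclear RNA of hnRNPC-targeted cells, higher in the cytosol by 1.17 ± 0.17. The BRD8 ECR, at 7.27 and 7.18 CPM in cytosolic and 12.8 and 11.7 CPM in nuclear RNA, changed by −0.76 ± 0.28 and was not called. The NFYC ECR was lower in the cytosol by −2.22 ± 0.26. Pooled editing of the introns was 7.91% ± 0.75 (SD, n = 2) in CTRL total RNA, 10.1% ± 0.029 in CTRL cytosolic RNA, 8.77% ± 0.073 and 10.5% ± 0.11 in hnRNPC-targeted cells and 2.87% ± 0.16 and 3.17% ± 0.057 in ADAR-targeted cells. These shares rest only on sites that both studies list, with a value in each library of the second study. The set of sites thus differs from that of the first study, and the levels of the 2 studies cannot be compared.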

How the data were processed

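RNA was sequenced from 48 libraries of the first and 18 of the second study. The authors aligned reads with STAR 2.5.4a to GRCh37 and deposited counts of uniquely mapped reads per gene, intron and ECR (featureCounts, GENCODE annotation), and, per editing site, counts of edited and total reads. Introns were gene intervals minus merged exons of principal transcripts and may hold exons of other transcripts.

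The regions, gene lists and named introns were chosen with earlier results of these data known. Named were the 8 largest increases among introns higher on all 3 days, the lowest of those lower on all 3 days (1 found), the 4 largest increases under IFN-α, the 3 largest interactions on day 5, the 3 introns with the most counts, the 3 with the most editing sites, and introns of the genes the study showed. Others are said to be named after their values were seen.

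Counts were tested with edgeR 4.0.16 (quasi-likelihood, all libraries of a study in 1 design, R 4.3.3), with gene totals scaled by TMM as library sizes and minimum average log2 CPM of 0.5 for genes, 1 for introns and 4.5 for ECRs. The SE printed with an edgeR log2 fold change is the size of that change divided by the square root of the F statistic of its test. Intron minus gene (prior count 2) and editing (log2 odds with 0.5 added) were tested with limma 3.58.1. All p-values were Benjamini-Hochberg adjusted over every feature tested. The scripts were tested on simulated data. 7SL matches came from blastn 2.17.0 with RN7SL2 of 297 bases (E-value 1e-08), and T runs had at least 9 bases. No pair of replicates agreed within sampling noise (lowest chi-square per degree of freedom 5.86 over 48 pairs). The replicates are stated to be separate experiments in the study but not in the labels, so p-values measure the spread between these libraries. Depth is given with the results, and features with few reads have wide errors. Alternatives were limma-voom, DESeq2 1.42.0 size factors and tests, intron totals, other filters, prior counts and editing limits, a replicate block and leaving out single libraries. Editing sites outside the introns were not analysed here. Some items are not reported here.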

Additional observations from a re-analysis of the deposited data

Results flagged for a closer look

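In these introns the response to hnRNPC targeting differed between cells with and without ADAR gRNA, by the interaction test of edgeR across all introns. The sites are 3 introns of MX1 and 1 of SP110, genes induced by IFN. On day 5 the interaction on the log2 scale was 6.263 for MX1 42799794, 6.115 for MX1 42818069, 4.945 for MX1 42824797 and 3.69 for SP110, and on day 4 it was 3.073 for MX1 42799794 (adjusted p = 0.047 in edgeR). These introns were also among those named for the size of their increase under IFN-α. The other ECR introns with a called interaction on day 5, named after their values were seen, differed in their IFN-α response. Those in MVB12A (interaction 3.36, IFN-α 2.40), PARP9 (3.16 and 3.82), RNF213 (2.87 and 2.32), STAT2 (2.45 and 1.62) and PML (2.29 and 1.41) were called higher under IFN-α. Some others were not called higher under IFN-α, such as KLHL23 (interaction 1.94, IFN-α −0.54), METTL9 (1.75 and −0.22) and ZMPSTE24 (1.10 and 0.08). Over all ECR introns the interaction was called for 1 intron with a larger response in cells with ADAR gRNA on day 4, and on day 5 for 24 with a larger and 14 with a smaller response. On day 5 these were 1.64% and 0.954% of the ECR introns tested, where all introns had 2.26% and 2.59%. Those 14 were 4 with library sizes from intron counts.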

How the results depend on the processing

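The counts of ECR introns higher in hnRNPC-targeted cells moved by less than 1.5 times under every alternative tried for them, and the values that moved more were mostly counts of lower introns, of interactions and of editing. With limma-voom the interaction on day 4 was called for 0 introns, and in the second study 9 ECRs were lower with hnRNPC gRNA in total RNA, 1 lower on the ADAR background in cytosolic RNA and 6 higher in cytosolic than in total RNA. With DESeq2 size factors 2 ECRs were lower on the ADAR background in total RNA, while the DESeq2 test moved none of 32 counts and a prior count of 0.5 none of 32. With intron totals as library sizes 59 introns were lower in ADAR+hnRNPC-targeted against ADAR-targeted cells on day 5, 85 against CTRL cells, and the interaction was called for 3 higher on day 4 and 4 lower on day 5. With no filter on low counts 1 intron was higher with ADAR gRNA on day 3 and 2 on day 5, 1 with GFP gRNA on day 3, 4 were lower on the ADAR background on day 3, and the interaction was called for 2 lower on day 3, 3 higher on day 4 and 22 lower on day 5. With a summed count of at least 1000 as the filter 0 were called on day 4. Taking introns with an ECR wholly inside, 0.144% were lower in hnRNPC-targeted cells on day 3 and 0% had the interaction on day 4, and with an overlap of 1 bp 0.165% had it. With edgeR and the gene as an offset, 2 introns were higher relative to their gene under IFN-α.

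Editing depended more on its settings. The study's last site filter, added after seeing the data, left 339, 333 and 342 introns lower with ADAR gRNA on days 3, 4 and 5 and 0 higher on day 4, 316, 346 and 239 lower in ADAR+hnRNPC-targeted than in hnRNPC-targeted cells, 0 lower under IFN-α, and 14 higher and 0 lower with hnRNPC gRNA on day 5. That filter keeps 27355 of the 475962 sites, so fewer introns had enough reads. On an arcsine square root scale 475 introns were higher and 2 lower under IFN-α, and 5, 52 and 102 higher in hnRNPC-targeted cells. A minimum of 20 reads gave 1 higher with ADAR gRNA on day 3, and 2 higher on day 4 and 1 lower on day 5 with hnRNPC gRNA. A minimum of 200 reads gave 0 higher with ADAR gRNA on day 4 and 1 lower with hnRNPC gRNA on day 5. The cause of these shifts was not tested.

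Replicates with the same number correlated above 0.1 in every pair in 11 of 16 comparisons (−0.386 to 0.729 over all pairs). The exceptions were the comparisons with hnRNPC gRNA on day 5, GFP gRNA on day 3 and IFN-α. The main tests did not pair the libraries, although same-numbered libraries of the hnRNPC and ADAR comparisons were related on days 3 and 4. With a replicate block the interaction on day 4 was called for 3 introns, and in the second study 3 host genes were higher on the ADAR background in cytosolic RNA, 2 lower with hnRNPC gRNA in cytosolic and 2 higher in total RNA, and no other count moved by more than 1.5 times. A crossed block in the second study, added after seeing the data, gave 24 higher and 13 lower ECRs in total RNA, and 84 higher and 378 lower in cytosolic against nuclear RNA.

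Leaving out single libraries gave these ranges. For introns, the higher count on the ADAR background on day 4 was 104 to 202 and its lower count on day 3 was 1 to 3. Against CTRL cells ADAR+hnRNPC-targeted cells had 1 to 3 lower on day 3 and 10 to 20 on day 4, hnRNPC-targeted cells 0 to 2 lower on day 3, and IFN-α–treated cells 0 to 2 lower. The interaction was called for 0 to 2 higher on day 4 and 4 to 21 lower on day 5. Introns lower relative to their gene numbered 0 to 2, 2 to 7 and 9 to 19 in hnRNPC-targeted cells on days 3, 4 and 5, 1 to 3 and 2 to 7 on the ADAR background on days 3 and 4, and 0 to 3 and 3 to 14 for combined targeting against CTRL cells, and under IFN-α 1 to 2 were higher and 1 to 2 lower. For editing, 0 to 2, 2 to 5 and 11 to 17 introns were higher and, on day 5, 1 to 2 lower in hnRNPC-targeted cells, 0 to 2, 1 to 2 and 0 to 1 higher with ADAR gRNA, 144 to 266 higher and 0 to 1 lower under IFN-α, and 307 to 474 lower and 0 to 1 higher in ADAR+hnRNPC-targeted against hnRNPC-targeted cells on day 5. For ECRs of the second study, 5 to 47 were lower in total and 15 to 47 higher and 2 to 6 lower in cytosolic RNA with hnRNPC gRNA, 62 to 147 higher in total and 17 to 22 higher and 0 to 7 lower in cytosolic RNA on the ADAR background, and 2 to 9 higher in cytosolic than in total RNA. For host genes there, 1 to 3 were higher and 0 to 18 lower in total and 0 to 3 higher and 0 to 4 lower in cytosolic RNA with hnRNPC gRNA, 3 to 13 higher and 1 to 3 lower on the ADAR background in total RNA, 1 to 8 higher in cytosolic than in total and 87 to 179 higher in cytosolic than in nuclear RNA. Where 1 library remained in a group, it was assumed to vary like the other groups.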
